A study of Mus musculus with 70 samples.

Results

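Adult neurogenesis genes are described here in the dorsal hippocampus of male C57BL/6J mice that had run in wheels in different patterns. The genes were 9 rows of the deposited expression table, chosen by symbol: Mki67, Top2a, Eomes, Neurod1, Igfbpl1, Sox11, Sox4, Dcx and Tubb2b, of 24346 genes listed. Each value is in FPKM, mapped fragments scaled to transcript length in kilobases and to sequencing depth. There were 70 libraries, 10 in each of 7 groups, and each group held 5 libraries from each of 2 harvest cohorts named in the labels.

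The mice were 12 weeks old and, as the methods state, individually housed. Each group name counts days of first running, then of rest, then of renewed running. The 14-0-0 group ran in a wheel for 14 days with no rest. The 14-7-0 group rested for 7 days afterwards and the 14-14-0 group for 14 days. The 14-7-2 group rested for 7 days and then ran for 2 more. The 0-0-2 group ran for 2 days only, and the sedentary group had no running wheel days. All of these 6 groups were trained for 3 min in an object location memory task, too short to form a lasting memory in sedentary mice, and tissue was taken 1 h later. The home cage group had neither running nor training. The tissue was the whole dorsal hippocampus of both hemispheres, so each gene was read in all cell types together, and fewer cells of a type cannot be told apart from less RNA per cell.

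New granule neurons are made throughout adult life in the dentate gyrus of the hippocampus. Radial glia-like stem cells divide and give rise to progenitors, which become neuroblasts and then immature neurons that join the granule cell layer. Running is a well known stimulus of this process in mice. Among the genes, Mki67 encodes the proliferation antigen Ki-67 and Top2a encodes topoisomerase II alpha, which untangles DNA in dividing cells. Eomes, also called Tbr2, is a T-box transcription factor of intermediate progenitors. Neurod1 is a basic helix-loop-helix factor of the granule cell lineage. Sox4 and Sox11 are transcription factors of newly made neurons, and Dcx encodes doublecortin, a microtubule-binding protein used as the standard marker of neuroblasts and immature neurons. Tubb2b is a beta-tubulin of young neurons, and Igfbpl1 encodes a secreted protein related to the insulin-like growth factor binding proteins.

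The promoters of the 2 proliferation genes are shown with that of Dcx because dividing cells share sequence elements there: the CCAAT box and the cell cycle homology region (TTTGAA). Each sequence is from RefSeq on GRCm38.p6 and runs 5′ to 3′ from 250 bases before to 50 bases after the transcription start site. Capitals mark matches on either strand to the CCAAT box and to TTTGAA of the cell cycle homology region. They also mark the E-box CAGATG, the Sox motif ACAAAG and the T-box element AGGTGT.
Mki67 (chr7:135716330-135716629, minus strand): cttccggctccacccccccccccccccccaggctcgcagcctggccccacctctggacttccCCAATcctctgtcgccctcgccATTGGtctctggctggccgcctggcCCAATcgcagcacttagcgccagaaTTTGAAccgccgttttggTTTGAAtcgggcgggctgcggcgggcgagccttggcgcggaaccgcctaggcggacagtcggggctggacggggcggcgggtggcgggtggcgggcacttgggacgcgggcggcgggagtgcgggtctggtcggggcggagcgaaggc
Top2a (chr11:99024140-99024439, minus strand): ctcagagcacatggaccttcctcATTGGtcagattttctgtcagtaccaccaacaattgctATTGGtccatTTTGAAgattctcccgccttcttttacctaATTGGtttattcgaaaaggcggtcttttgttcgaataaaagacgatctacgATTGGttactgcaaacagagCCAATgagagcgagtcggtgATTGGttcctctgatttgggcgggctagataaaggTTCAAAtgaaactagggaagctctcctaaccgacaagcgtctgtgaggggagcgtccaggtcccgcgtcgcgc
Dcx (chrX:143933075-143933374, minus strand, 1 of 2 start sites listed): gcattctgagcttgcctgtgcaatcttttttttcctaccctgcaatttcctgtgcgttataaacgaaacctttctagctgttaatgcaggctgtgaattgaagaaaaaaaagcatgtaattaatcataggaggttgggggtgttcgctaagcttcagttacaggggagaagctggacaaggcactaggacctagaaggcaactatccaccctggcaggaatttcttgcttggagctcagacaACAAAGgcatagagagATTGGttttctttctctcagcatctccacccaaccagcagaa
The Mki67 promoter held 3 CCAAT and 2 TTTGAA matches, with the TTTGAA matches beginning at positions -116 and -98 from the start site. The Top2a promoter held 6 CCAAT and 2 TTTGAA matches, the latter beginning at positions -179 and -23. The Dcx promoter shown held 1 CCAAT and 1 ACAAAG match and no TTTGAA match. Of 32851 mouse promoters of the same length, 37.4% held CCAAT, 17.9% TTTGAA, 17.2% CAGATG, 18.7% ACAAAG and 13.7% AGGTGT, so a single match to any of them was not rare. These shares count promoters with at least 1 match, and the share with several matches was not computed. Matches are descriptions of letters in these windows only. RefSeq promoters were also found for Sox11, Sox4, Neurod1 and Eomes. Sox4 held 4 CCAAT matches, Eomes 2 and Sox11 1, and Sox11 also held 1 TTTGAA match. Neurod1 held no match to either. The other Dcx start site held 1 CCAAT match and no ACAAAG match. Matches to CCAAT and TTTGAA were therefore not limited to the 2 proliferation genes. No RefSeq promoter entry was available for Igfbpl1 and Tubb2b.

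All 9 genes were detected in every library, and 6 of them averaged 1 FPKM or more and entered the fit across genes. Tubb2b was the most abundant at a mean of 89.5 FPKM, above 96.4% of all genes listed. Neurod1 followed at 11.2, Sox4 at 4.39, Dcx at 3.12, Igfbpl1 at 2.66 and Sox11 at 2.40 FPKM. Eomes, Top2a and Mki67 were low, at means of 0.581, 0.478 and 0.373 FPKM, and were tested one by one with permutations. Some of these values share sequence with other genes. Of the 50-base stretches in the Tubb2b transcript, 39.3% also occur in transcripts of other genes and 33.4% in its close relative Tubb2a (mean 331 FPKM). Of those in Sox4, 54.1% lie in the overlapping gene Gm26735, which is annotated on the opposite strand, and whether the counting used strand is not given in the sources used here. The Tubb2b and Sox4 levels are therefore uncertain, whereas Igfbpl1 and Sox11 shared no such stretch.

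Libraries that stood apart bore on these genes. Sedentary replicate 6 had the lowest Neurod1 (0.312 FPKM), the highest Igfbpl1 (10.9 FPKM) and the second highest Eomes (4.55 FPKM) of all 70 libraries. Its summed level of 10 dentate granule cell markers was 58.4 FPKM against 96.9 to 267 in the other sedentary libraries, and its sum of 10 CA1 and CA3 pyramidal cell markers was 194 FPKM against 545 to 781. The sum of 10 markers of olfactory bulb and striatal interneuron precursors (Dlx1, Dlx2, Sp8, Sp9 and others) was 180 FPKM against 39.8 to 69.9. In this library the tissue markers thus went against the dorsal hippocampus label. The next libraries in the score of those precursor markers were 0-0-2 replicate 4 and 14-14-0 replicate 3, which are described with Eomes and Igfbpl1. The library 14-7-0 replicate 4 was shallow, with an estimated depth of 0.0367 of a reference library against 0.346 to 1.48 in the others, and 10279 genes at 0 against 6243 to 7199. Markers of choroid plexus epithelium, a tissue that lies against the hippocampus, also differed: all 10 rose in 14-0-0 and all 10 in 14-14-0 against sedentary, with summed levels of 90.4 to 18307 FPKM in 14-0-0 and 73.4 to 503 in sedentary. The main values are therefore given with and without sedentary replicate 6, and the part of the marker differences was not tested beyond the covariate fits named below.

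The first question was whether 14 days of running changed these genes. In 14-0-0 all 9 genes had higher mean log2 levels than in sedentary, by a median of 0.17 on the log2(FPKM + 0.1) scale. Of the 12994 genes averaging 1 FPKM or more, a set that leaves out Eomes, Top2a and Mki67, 52.4% were higher. The smallest differences of the 9 genes were 0.00086 for Top2a and 0.05 for Mki67, and the mean FPKM of Eomes (0.447 and 0.726) and Top2a (0.491 and 0.492) was lower in 14-0-0 than in sedentary. In the other comparisons with sedentary 6 or 7 of the 9 were higher, with 7 in home cage, where 45.7% to 53.1% of the 12994 genes were. In the second cohort alone, which holds sedentary replicate 6, several were lower in 14-0-0 than in sedentary. These were Dcx (-0.025), Sox11 (-0.019), Sox4 (-0.00075), Eomes (-0.35), Mki67 (-0.019) and Top2a (-0.068). With both cohorts, of the 6 genes in the fit, Igfbpl1 and Tubb2b rose in 14-0-0 at an unadjusted limma p under 0.05, and 0 fell. Of all 12994 genes tested, 6.11% rose by the same criterion, and 0 passed an adjusted p of 0.05. The median log2 fold change was 0.25 for the 6 genes and 0.01 for all genes tested. When sedentary replicate 6 was left out, Dcx, Igfbpl1 and Tubb2b rose, where 6.97% of all genes rose. The smallest adjusted p among the 6 genes was then 0.0858, for Igfbpl1.

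**Figure D1:**
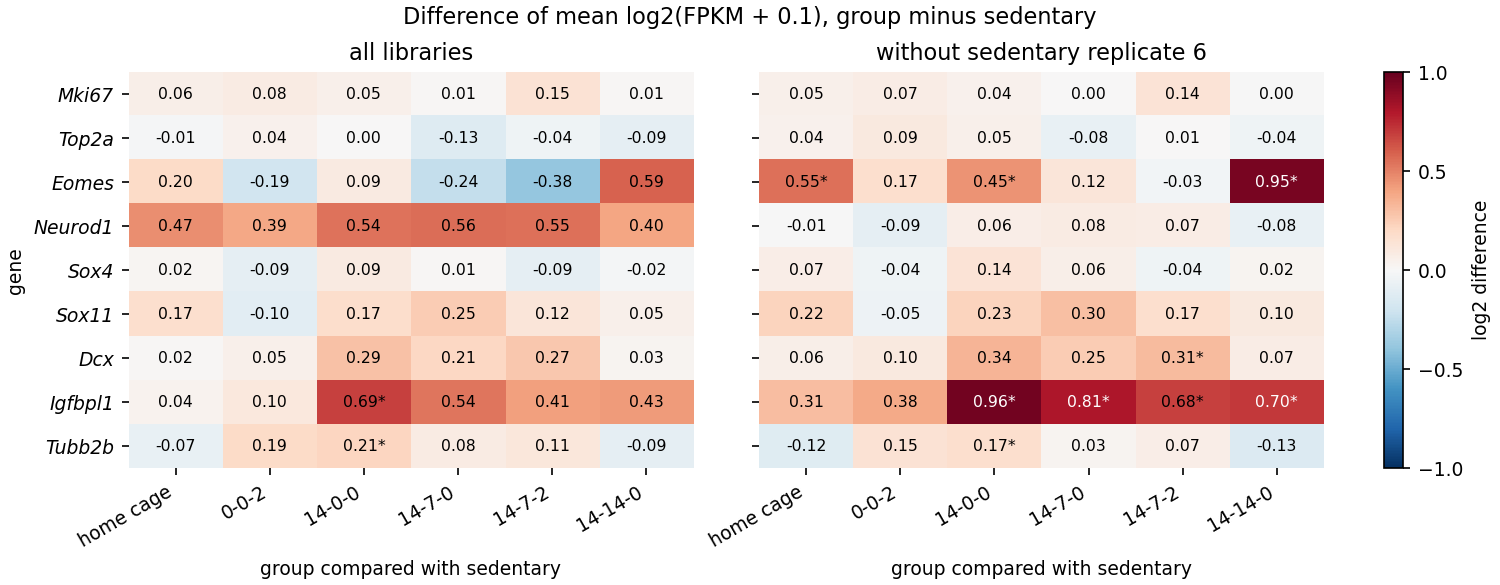
Difference of the mean log2(FPKM + 0.1) between each group and sedentary for the 9 genes (rows), with all libraries on the left and without sedentary replicate 6 on the right. Color gives the difference and an asterisk an unadjusted permutation p under 0.05; Igfbpl1 was marked in 1 group with all libraries and in 4 groups without that library, and Mki67 and Top2a in none.

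Neither gene of dividing cells passed the test after any pattern of running. Mki67 ranged from 0.241 to 0.561 FPKM in sedentary (median 0.308) and from 0.270 to 0.489 in 14-0-0 (median 0.361). The 2 ranges overlapped almost wholly. The means were 0.360 ± 0.119 and 0.369 ± 0.0758 FPKM (SD, n = 10 each), a log2 difference of 0.05 (standard error 0.139 in a fit of genes averaging 0.1 FPKM or more, two-sided permutation p = 0.702). Top2a ranged from 0.309 to 0.706 FPKM in sedentary and from 0.333 to 0.627 in 14-0-0, with medians of 0.479 and 0.490. Its log2 difference was 0.00086 (standard error 0.116, permutation p = 0.99). Across the 6 comparisons with sedentary, the log2 differences of Mki67 ran from 0.01 to 0.15 and those of Top2a from -0.13 to 0.04, with permutation p-values of at least 0.388 and 0.300. When sedentary replicate 6 was left out, the 14-0-0 values were 0.04 (exact permutation p = 0.773) and 0.05 (exact permutation p = 0.611). Both genes were near the low end of what was measured, and a p above the threshold does not show equal levels.

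**Figure D2:**
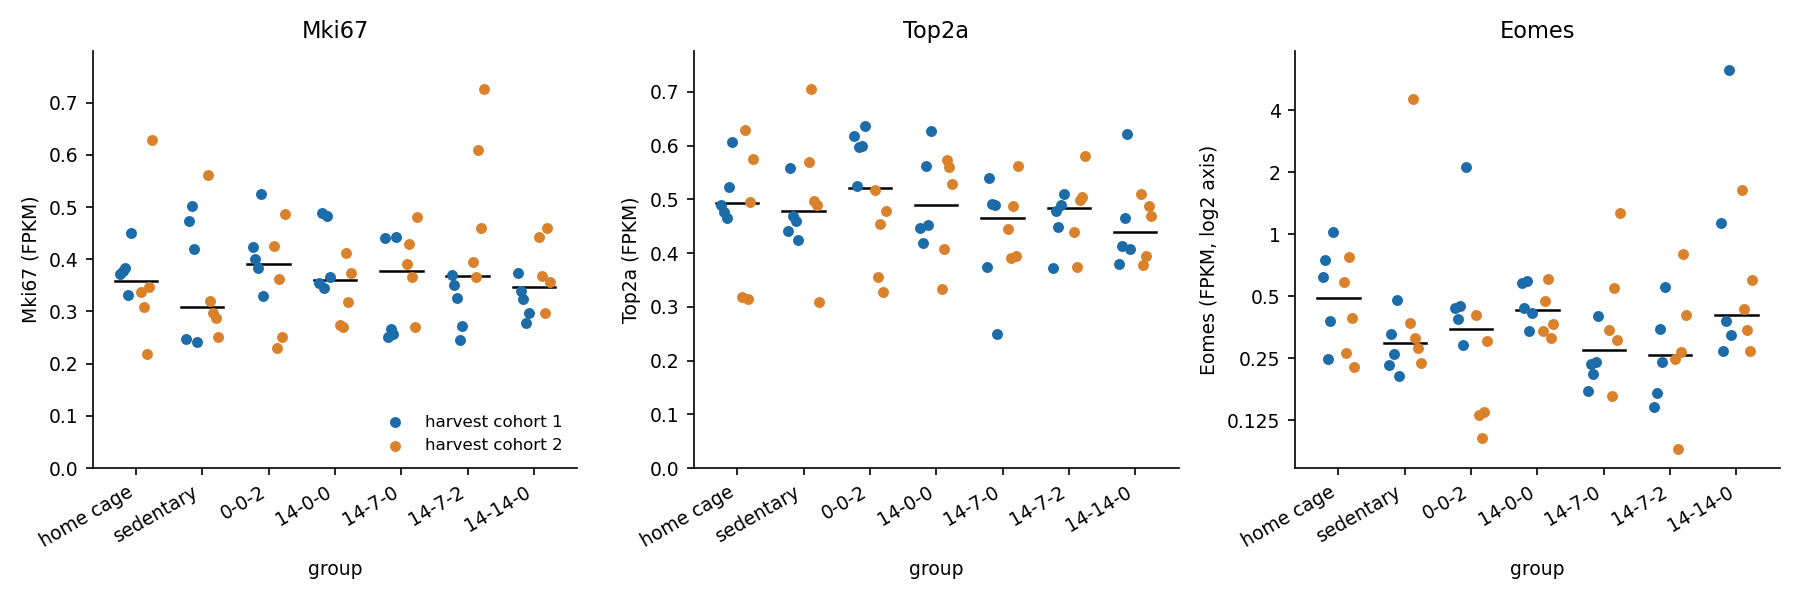
FPKM of Mki67, Top2a and Eomes in each of 70 libraries by group, colored by harvest cohort, with a black line at the group median; the Eomes axis is log2. Mki67 and Top2a overlap in all groups, and 3 libraries stand above 2 FPKM in Eomes: sedentary replicate 6, 0-0-2 replicate 4 and 14-14-0 replicate 3.

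No other cell cycle gene passed with all libraries. Of 24 listed (Mcm2, Mcm5, Ccnb1, Cdk1 and others), 9 passed the minimum of 1 FPKM, and 0 rose and 0 fell in each of the 6 comparisons with sedentary by limma at an unadjusted p under 0.05. Their median log2 fold change in 14-0-0 was 0.04, against 0.01 for all genes. Mcm5, a subunit of the replicative helicase, had the smallest p, with 2.15 ± 0.256 FPKM in 14-0-0 and 1.94 ± 0.179 in sedentary (SD, n = 10, limma p = 0.0749). Ccnd2 fell in 14-7-0 once sedentary replicate 6 was left out, where 216 of 12994 genes fell.

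Eomes was set by a few libraries. In sedentary it ranged from 0.206 to 4.55 FPKM with a median of 0.298, and without sedentary replicate 6 the highest was 0.479. In 14-0-0 it ranged from 0.314 to 0.607 with a median of 0.429. All 10 of the 14-0-0 libraries were above the sedentary median, yet the log2 difference was 0.09 (permutation p = 0.936). Without sedentary replicate 6 the difference was 0.45 (exact permutation p = 0.00463, 0.0278 adjusted over the 6 comparisons), with means of 0.447 ± 0.113 (n = 10) and 0.301 ± 0.0849 FPKM (SD, n = 9). The exact permutation p was also under 0.05 in 14-14-0 (0.95, p = 0.0176) and home cage (0.55, p = 0.027), and the adjusted values there were 0.0529 and 0.0541. In 14-14-0 the highest library held 6.29 FPKM and the next 1.64. The home cage mice had neither run nor been trained.

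Neurod1 differed little between groups once sedentary replicate 6 was set aside. Sedentary ranged from 0.312 to 14.7 FPKM with a median of 11.3, and from 4.78 without that library. The 14-0-0 group ranged from 7.12 to 14.8 with a median of 12.04. The log2 difference was 0.54 (standard error 0.476, limma p = 0.271) with all libraries and 0.06 without sedentary replicate 6 (exact permutation p = 0.747). Most of the difference in mean log2 level was therefore absent without the library whose dentate granule cell markers were lowest.

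Igfbpl1 gave the largest difference. In sedentary it ranged from 0.959 to 10.9 FPKM with a median of 1.65, and the highest value without sedentary replicate 6 was 2.59. In 14-0-0 it ranged from 2.01 to 3.80 with a median of 3.27. Every 14-0-0 library was above the sedentary median, and 8 of 10 were above all sedentary libraries other than replicate 6. The log2 fold change was 0.69 with all libraries (standard error 0.311, limma p = 0.0385, adjusted p = 0.509). It was 0.96 without sedentary replicate 6 (standard error 0.182, limma p = 3.89e-05, adjusted p = 0.0858, exact permutation p = 0.000281), with means of 3.16 ± 0.632 (n = 10) and 1.64 ± 0.617 FPKM (SD, n = 9), a ratio of 1.93. When libraries were left out 1 at a time, Igfbpl1 did not pass in most fits, with limma p up to 0.0752.

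Igfbpl1 was also higher in the groups that had rested after running. In 14-7-0 it ranged from 1.47 to 4.32 FPKM (median 2.93), in 14-7-2 from 1.82 to 3.43 (median 2.57) and in 14-14-0 from 1.59 to 5.94 (median 2.44). With all libraries none of these passed the test, and 0 of the 6 genes rose in 14-7-0, 14-7-2 or 14-14-0, where 1.60%, 2.07% and 3.19% of all genes rose. Without sedentary replicate 6, Igfbpl1 rose in all 3, with log2 fold changes of 0.81 (standard error 0.222, limma p = 0.00165), 0.68 (0.183, p = 0.00139) and 0.70 (0.248, p = 0.0104), where 1.63%, 1.75% and 4.53% of all genes rose. The exact permutation p-values adjusted over the 6 comparisons were 0.00836, 0.00836 and 0.0232, while the limma values adjusted over all genes were 0.999, 0.871 and 0.683. These 3 comparisons share their sedentary libraries with each other and with 14-0-0.

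By median the groups without 14 days of running stood lower. Igfbpl1 ranged from 0.812 to 8.96 FPKM (median 2.14) in 0-0-2 and from 1.08 to 2.58 (median 2.06) in home cage. With all libraries 0 of the 6 genes rose in these groups, where 1.14% and 1.22% of all genes rose. Without sedentary replicate 6 the count stayed at 0, where 1.24% and 1.84% of all genes rose, and the Igfbpl1 log2 fold changes were 0.38 (limma p = 0.26) and 0.31 (limma p = 0.116). The cohorts differed in 0-0-2. In the first, which holds 0-0-2 replicate 4, Igfbpl1 was 0.98 above sedentary (exact permutation p = 0.0397), as far as in 14-0-0 (0.96). In the second the difference was -0.77, and -0.23 without sedentary replicate 6. The difference between cohorts passed without that library too (-1.21, limma p = 0.0449). By median 14-0-0 was highest, followed by 14-7-0, then 14-7-2, then 14-14-0, with 0-0-2, home cage and sedentary last. Neighbors in that order overlapped, and the 4 groups that had run for 14 days filled the first 4 places. Among them, 14-0-0 differed from 14-7-0 by 0.15 (standard error 0.182, limma p = 0.417) and from 14-14-0 by 0.26 (0.210, p = 0.234). The latter difference passed without 14-14-0 replicate 3 (0.39, limma p = 0.0431) and with the interneuron precursor score as a covariate (0.54, limma p = 0.00834), both chosen after the data were seen.

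**Figure D3:**
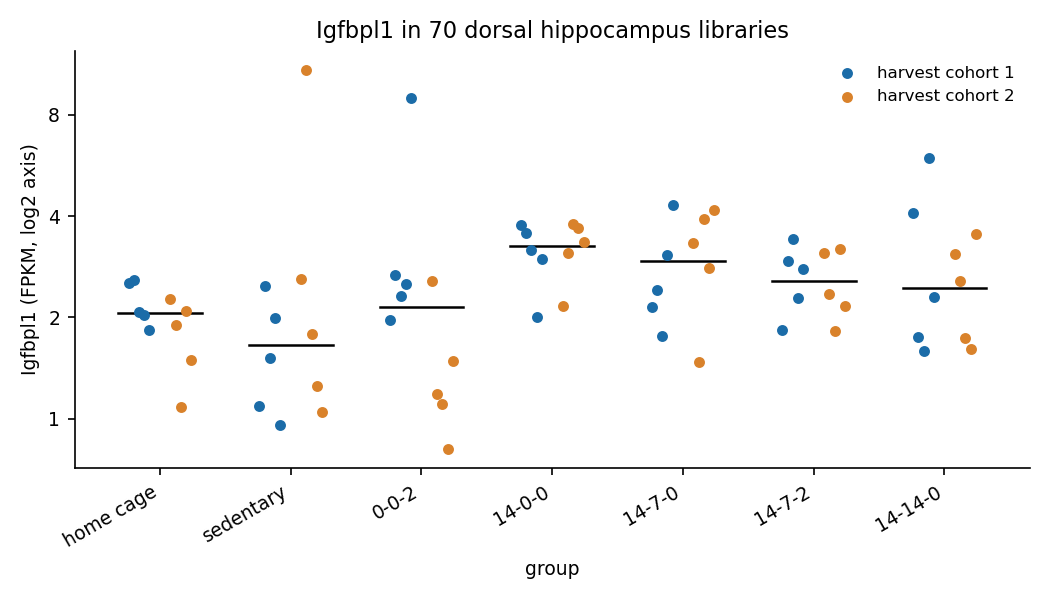
Igfbpl1 (FPKM, log2 axis) in each of 70 libraries by group, colored by harvest cohort, with a black line at the group median. The highest points are sedentary replicate 6 (10.9 FPKM) and 0-0-2 replicate 4 (8.96 FPKM), and the medians of the 4 groups that ran for 14 days lie between 2.44 and 3.27 FPKM, above the other 3 groups.

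The libraries highest in Igfbpl1 were those highest in the interneuron precursor markers. Sedentary replicate 6, 0-0-2 replicate 4 and 14-14-0 replicate 3 held the 3 highest scores of those markers, the 3 highest Igfbpl1 values (10.9, 8.96 and 5.94 FPKM) and the 3 highest Eomes values (4.55, 2.11 and 6.29 FPKM). The same 3 libraries also held the 3 highest scores of ependymal cell markers (2.52, 1.16 and 2.09) and of Cajal-Retzius cell markers (0.99, 0.72 and 1.28), and summed thalamus markers of 197, 125 and 103 FPKM. The part of each cell type in these values was not tested. With the precursor score as a covariate, added after the data were seen, Igfbpl1 rose in 14-0-0 by 1.03 (standard error 0.225, limma p = 0.000196) and in 14-7-0, 14-7-2 and 14-14-0 by 0.71, 0.76 and 0.51 (limma p = 0.00618, 0.00249 and 0.0285). With the dentate granule cell score as a covariate it rose in 14-0-0 by 0.89 (limma p = 0.0035). With the choroid plexus score and all libraries it did not pass the test (0.56, limma p = 0.172). With that score and without sedentary replicate 6 it passed in 14-0-0 (0.92, limma p = 0.00083), 14-7-0 (0.73, p = 0.00217) and 14-7-2 (0.63, p = 0.00412) and not in 14-14-0 (0.50, p = 0.1).

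**Figure D4:**
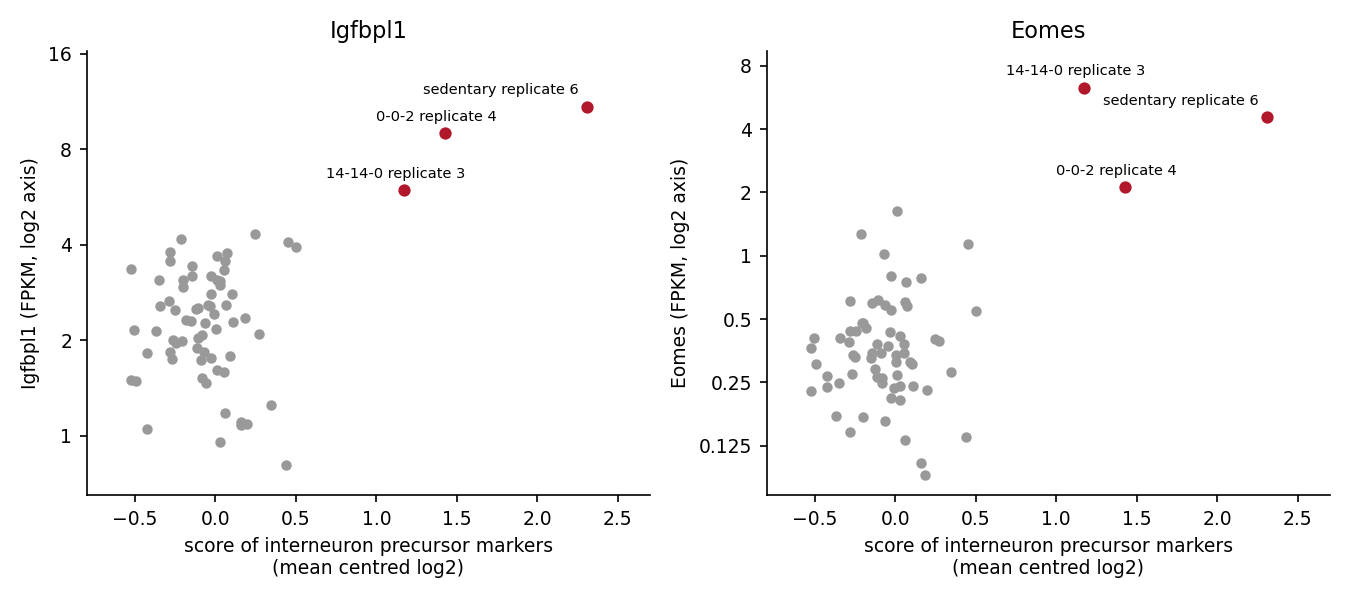
Igfbpl1 and Eomes (FPKM, log2 axes) against the score of 10 olfactory bulb and striatal interneuron precursor markers, the mean of their log2 levels each centered over the 70 libraries. Sedentary replicate 6, 0-0-2 replicate 4 and 14-14-0 replicate 3 are in red and lie to the right of all other libraries.

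Dcx, the standard marker of young neurons, did not pass the main test in 14-0-0 with all libraries. It passed there in a joint fit of the 7 groups and with the interneuron precursor score as a covariate. It ranged from 1.42 to 3.79 FPKM in sedentary (median 2.88) and from 2.01 to 4.35 in 14-0-0 (median 3.67). The ranges overlapped, and 3 of the 14-0-0 libraries were above every sedentary library. Means were 2.89 ± 0.702 and 3.54 ± 0.744 FPKM (SD, n = 10 each), a log2 fold change of 0.29 (standard error 0.158, limma p = 0.0796). Leaving out sedentary replicate 6 gave 0.34 (0.159, limma p = 0.0458) and the exact permutation p was 0.0551, so the call depended on the test. In 14-7-2 the Dcx log2 fold change was 0.27 (limma p = 0.0762) with all libraries and 0.31 (limma p = 0.0394) without sedentary replicate 6. In 14-7-0 it ranged from 2.76 to 3.84 FPKM (median 3.22), with 9 of 10 libraries above the sedentary median, at 0.21 (limma p = 0.13) with all libraries and 0.25 (limma p = 0.0639, exact permutation p = 0.0515) without sedentary replicate 6. In 14-14-0 it ranged from 2.44 to 3.36 FPKM (median 2.85) with a log2 fold change of 0.03 (limma p = 0.838), in 0-0-2 of 0.05 and in home cage of 0.02.

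The Dcx difference in 14-0-0 was larger in the first harvest cohort. There the 5 14-0-0 libraries held 3.64 to 4.35 FPKM and the 5 sedentary libraries 1.42 to 3.58, so the groups did not overlap (log2 difference 0.61, exact permutation p = 0.00794, the smallest that 5 against 5 allows). In the second cohort the ranges were 2.01 to 3.69 and 2.29 to 3.79 FPKM, a log2 difference of -0.02. The difference between cohorts was -0.63 (standard error 0.291, limma p = 0.043, adjusted p = 0.956), a test in which 2.79% of all genes passed. It did not pass when sedentary replicate 6 was left out (-0.55, limma p = 0.0789). Igfbpl1 in 14-0-0 was higher in both cohorts, by 0.96 (exact permutation p = 0.0159) in the first and by 0.42 (exact permutation p = 0.54) in the second, which holds sedentary replicate 6. In the second cohort the mean was 3.22 FPKM in 14-0-0 and 3.51 in sedentary, and the log2 difference was 0.96 when that library was left out. Its difference between cohorts did not pass (limma p = 0.4).

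**Figure D5:**
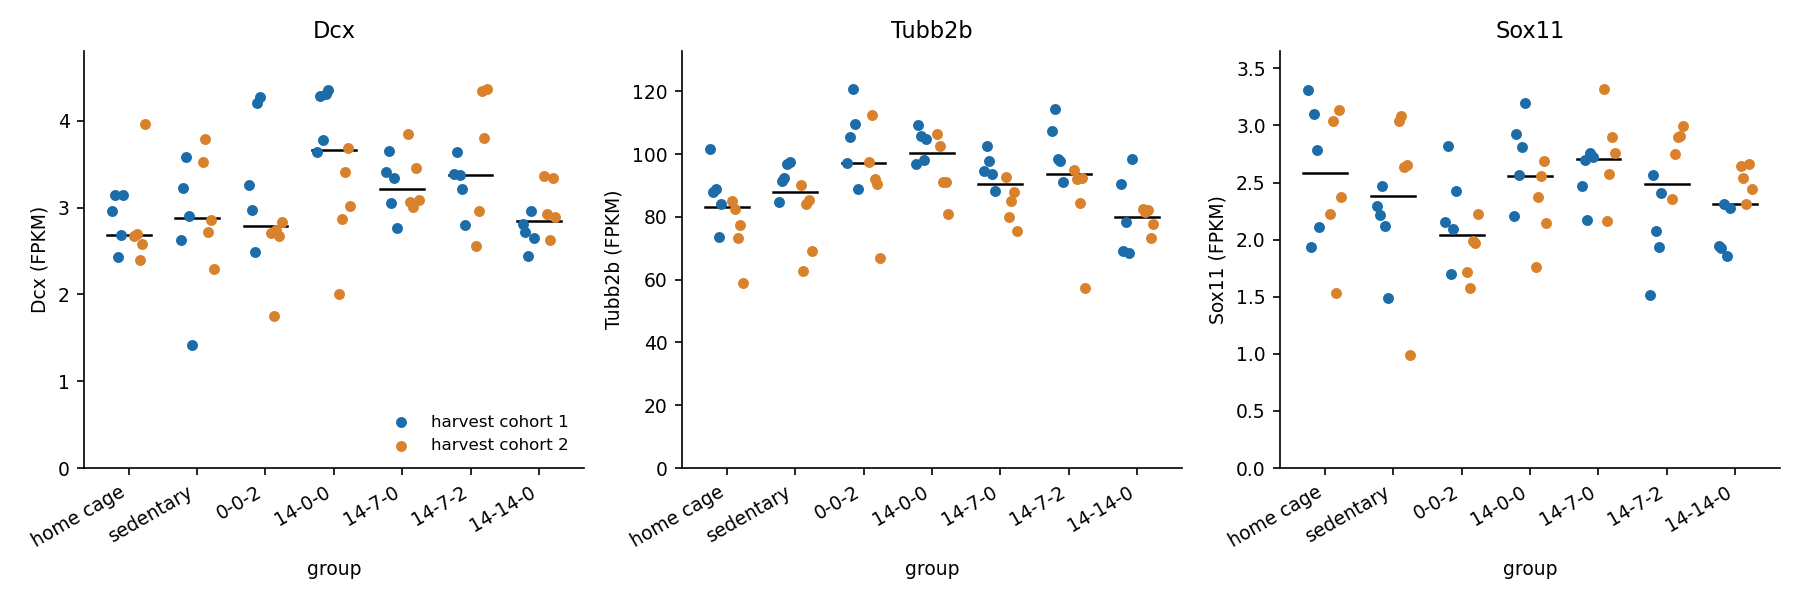
FPKM of Dcx, Tubb2b and Sox11 in each of 70 libraries by group, colored by harvest cohort, with a black line at the group median. In the first cohort the Dcx values of 14-0-0 (3.64 to 4.35 FPKM) lie above all of sedentary (1.42 to 3.58), and in the second cohort they overlap. Tubb2b and Sox11 overlap in both cohorts of that comparison. The share of all genes without overlap in a cohort was not computed.

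Tubb2b rose by a small amount that varied little. It ranged from 62.9 to 97.5 FPKM in sedentary (median 87.9) and from 81.0 to 109 in 14-0-0 (median 100.3), and 6 of 10 14-0-0 libraries were above all sedentary libraries. The log2 fold change was 0.21 (standard error 0.0776, limma p = 0.0119, adjusted p = 0.384), and the permutation p was 0.00818 (0.0491 adjusted over the 6 comparisons). Without sedentary replicate 6 it was 0.17 (limma p = 0.0193), with an exact permutation p of 0.0176 and 0.106 after adjustment. Tubb2a, with which a large part of its sequence is shared, had a log2 fold change of -0.01 in the same comparison (limma p = 0.868). Within the first cohort Tubb2b was higher in 14-0-0 by 0.15 (exact permutation p = 0.0159) and within the second by 0.27 (exact permutation p = 0.0635). After 2 days of running only, in 0-0-2, its mean was 98.1 FPKM, near the 98.7 of 14-0-0, with 9 of 10 libraries above the sedentary median. The log2 difference there was 0.19 (permutation p = 0.0661), and 0.15 without sedentary replicate 6 (exact permutation p = 0.134). Tubb2b passed in 0-0-2 by limma with cohort as a covariate, a joint fit of the 7 groups or the choroid plexus score.

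The Sox genes did not pass in 14-0-0 with all libraries or without sedentary replicate 6. Sox11 ranged from 0.992 to 3.09 FPKM in sedentary (median 2.38) and from 1.76 to 3.19 in 14-0-0 (median 2.56), a log2 fold change of 0.17 (standard error 0.163, limma p = 0.299) and of 0.23 (limma p = 0.179) without sedentary replicate 6. It was higher by 0.37 in the first cohort (exact permutation p = 0.0397) and differed by -0.019 in the second (exact permutation p = 0.976). Its highest median was in 14-7-0, at 2.71 FPKM, with a log2 fold change of 0.25 against sedentary (limma p = 0.124). Sox4 ranged from 3.72 to 5.92 FPKM in sedentary (median 4.14) and from 2.97 to 5.77 in 14-0-0 (median 4.84), a log2 fold change of 0.09 (standard error 0.107, limma p = 0.417) and of 0.14 (limma p = 0.193) without sedentary replicate 6. Adjusted for the choroid plexus score and without that library it passed (0.27, limma p = 0.0388).

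A second question was how the genes stood after rest and after brief running. Tubb2b was higher in 14-0-0 than in 14-14-0, by 0.30 (standard error 0.0657, limma p = 0.000169, adjusted p = 0.22), with 68.5 to 98.4 FPKM in 14-14-0 (median 79.9). Dcx was also higher in 14-0-0 than in 14-14-0, by 0.26 (0.112, limma p = 0.0287, adjusted p = 0.651). These were 2 of the 6 genes, where 5.48% of all genes were higher. Against 14-7-0, Tubb2b alone was higher in 14-0-0 (0.14, limma p = 0.0351), where 3.60% of all genes were higher, and Tubb2a was higher there too (0.18, limma p = 0.0356). Against 0-0-2, Sox11 alone was higher in 14-0-0 (0.28, standard error 0.108, limma p = 0.0181), where 1.16% of all genes were higher, with 1.57 to 2.82 FPKM in 0-0-2 (median 2.04). Igfbpl1 in that comparison was at 0.58 (limma p = 0.0578), and at 0.82 (limma p = 0.0007, adjusted p = 1) without 0-0-2 replicate 4, an alternative chosen after the data were seen.

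None of the 6 genes passed the test for the 2 days of reactivating running. In 14-7-2 against 14-7-0, log2 fold changes ran from -0.13 (Sox11 and Igfbpl1) to 0.06 (Dcx), and 0 of the 6 genes rose, where 2.03% of all genes rose. The effect of 2 days of running after 14-7-0 was compared with that from sedentary in 1 model of 4 groups. The difference was 0.01 for Dcx, -0.16 for Tubb2b, -0.23 for Igfbpl1 and -0.39 for Neurod1, with limma p-values from 0.247 to 0.95, where 1.34% of all genes passed. The standard errors were 0.136 to 0.506, so small differences could not have been seen.

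Some effects differed between the harvest cohorts in other groups. In 0-0-2 the difference from sedentary was 0.98 in the first cohort and -0.77 in the second for Igfbpl1, 0.76 and -1.13 for Eomes, and 0.29 and -0.20 for Top2a, 3 of the 9 genes at a limma p under 0.05 where 1.97% of all genes averaging 0.1 FPKM or more passed. The first cohort holds 0-0-2 replicate 4 and the second holds sedentary replicate 6. For Mki67 in 14-7-2 it was -0.18 and 0.47, 1 of the 9 genes, where 2.92% of all genes passed. The 5 first-cohort libraries of 14-7-2 held 0.245 to 0.371 FPKM of Mki67 and the 5 of the second cohort 0.366 to 0.727.

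Other genes of the pathway followed by stage. Of 17 radial glia-like stem cell genes, 16 were tested, and in 14-0-0 0 rose and 0 fell, where 6.11% of all genes rose and 3.04% fell. In 14-7-0 Prom1 rose, in 14-7-2 Nes and Pax6 fell, and in 0-0-2 Lpar1 and Nes fell, where Nes encodes the intermediate filament nestin. Among all genes 1.60% rose in 14-7-0, 2.32% fell in 14-7-2 and 1.23% fell in 0-0-2. Leaving out sedentary replicate 6 ended the call of Lpar1, and Riiad1 then rose in 14-0-0, Id4 in 14-14-0 and Fabp7 in home cage. Without that library 6.97%, 4.53% and 1.84% of all genes rose in these 3 groups. The median log2 fold change of the list in 14-0-0 was -0.11. Of 15 progenitor and neuroblast genes, 11 were tested, and Tac2, which encodes the neurokinin B precursor, and Nhlh1, a helix-loop-helix factor of young neurons, rose in 14-0-0 while 0 fell, where 6.11% of all genes rose and 3.04% fell. Tac2 was at 6.39 ± 0.820 FPKM in 14-0-0 and 4.40 ± 1.65 in sedentary (SD, n = 10, log2 fold change 0.60, limma p = 0.0012), and Nhlh1 at 1.68 ± 0.301 and 1.04 ± 0.480 (0.89, limma p = 0.0244). When sedentary replicate 6 was left out the log2 fold changes were 0.70 (limma p = 4.04e-05) and 0.53 (limma p = 0.00177), and Tbr1 fell. Of all 12994 genes, 6.97% then rose and 436 fell. Tac2 and Nhlh1 were also higher in 14-0-0 than in 14-14-0, where 5.48% of all genes were higher. In the 5 other groups 0 of the 11 rose and 0 fell with all libraries, where 1.14% to 3.19% of all genes rose and 1.08% to 2.32% fell. Without sedentary replicate 6 Tac2 rose in 14-7-0, where 1.63% of all genes rose. In 0-0-2 Mfap4 then rose and Tbr1 fell, where 1.24% of all genes rose and 166 of 12994 fell. The median log2 fold change of the list in 14-0-0 was 0.31 with all libraries and 0.0013 without sedentary replicate 6.

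Of 19 immature neuron genes, 18 were tested, and Sema3c, which encodes a secreted semaphorin, rose in 14-0-0, 14-7-0 and 14-7-2 and did not pass in the other groups. This was 1 of 18 genes in each, where 6.11%, 1.60% and 2.07% of all genes rose. It was at 10.7 ± 1.59 FPKM in 14-0-0 and 8.07 ± 1.61 in sedentary (SD, n = 10, log2 fold change 0.41, limma p = 0.00198), and the log2 fold changes in the 3 groups were 0.34, 0.21 and 0.20 when sedentary replicate 6 was left out, each still under a limma p of 0.05. Tubb2a fell in 14-7-0 and, with Tubb3, in 14-14-0, where 1.66% and 1.75% of all genes fell. When sedentary replicate 6 was left out Tubb3 did not pass, and Cd24a rose in 14-0-0 and 14-14-0, where 6.97% and 4.53% of all genes rose. Gap43 and Nnat, both abundant in growing neurons, had log2 fold changes of -0.43 (limma p = 0.113) and -0.30 (limma p = 0.192) in 14-0-0, and of -0.20 and -0.14 when sedentary replicate 6 was left out. The median log2 fold change of the list was -0.05, and with all libraries 17 of the 18 did not pass in either direction in 14-0-0.

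Across libraries the genes were only loosely tied to one another. Over 66 libraries, leaving out 14-7-0 replicate 4 and the 3 libraries highest in precursor markers, Pearson's r on the log2 scale was 0.60 for Dcx with Mki67, 0.54 for Dcx with Sox11, 0.46 for Dcx with Igfbpl1, 0.45 for Mki67 with Top2a, and 0.55 for Sox11 with Neurod1. Dcx with Sox4 was at -0.10 and with Tubb2b at 0.01. With the dentate granule cell score r was 0.69 for Sox11, 0.55 for Neurod1, 0.29 for Dcx and 0.15 for Tubb2b, and Eomes went with the score of Cajal-Retzius cell markers (0.76). Tubb2b was highest with the scores of astrocyte (0.57) and microglia (0.55) markers, and Sox4 with that of microglia markers (0.50). For Mki67, r with the marker scores ran from -0.59 (oligodendrocyte precursors) and -0.53 (microglia) up to 0.47 (dentate granule cells). These values describe libraries that share depth, dissection and cohort. The genes most like Dcx over 68 libraries were Bclaf1, Pcm1, Zkscan16, Ikbkg and Rev3l (r from 0.75 to 0.77), and those most like Mki67 were Sorbs2, Syne1, Mrgpra6, Lca5 and Nsun7 (0.77 to 0.86), where sedentary replicate 6 and 14-7-0 replicate 4 were left out. Over all 70 libraries r was 0.73 for Bclaf1 and 0.78 for Sorbs2.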

How the data were processed

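RNA was measured in 70 dorsal hippocampus libraries prepared with a TruSeq RNA kit. The authors aligned 50 bp single reads, kept reads placed uniquely with at most 2 mismatches, and deposited 1 table of FPKM values, which are not counts. The submitters' processing notes name Bowtie, Cuffnorm and mm10, with no versions, and the annotation is not given in the sources used here. Read totals per library, which the study lists in its supplement, were not used here, and relative depth was estimated from genes with a mean under 0.1 FPKM.

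Groups came from the labels. Values were tested as log2(FPKM + 0.1) with limma 3.58.1 (R 4.3.3, two-sided, trend) on the 20 libraries of each comparison, for the 12994 of 24346 genes averaging 1 FPKM or more, and called at an unadjusted p under 0.05, with Benjamini-Hochberg values over all genes. Single genes were tested with 100000 permutations, or exactly without sedentary replicate 6. Fold changes on this scale understate changes of low genes. The labels do not tie libraries to animals, so p-values measure the spread between libraries, and no libraries held identical values. The fit was checked on simulated data. Motifs and shared 50-base stretches were searched in RefSeq promoters and GENCODE transcripts of GRCm38. Named genes were all 9 genes, up to 4 genes of each pathway list with the smallest p in 14-0-0 or called in at least 3 comparisons with sedentary, the 5 genes most correlated with Dcx and with Mki67, and Tubb2a. Ccnd2, Prom1, Pax6, Lpar1, Riiad1, Id4, Fabp7, Tbr1, Mfap4, Cd24a and Tubb3 were named after their values were seen. The 9 genes, the pathway and marker lists and the libraries left out were chosen with earlier results of these data known. Alternatives tried were log2(FPKM + 1), minima of 0.1 and 5 FPKM or none, median-ratio scaling, a joint fit, cohort, replicate number or marker scores as covariates, Cyber-T, each cohort alone, leaving out libraries, and p under 0.01.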

Additional observations from a re-analysis of the deposited data

Results flagged for a closer look

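Single libraries lay apart from the other 9 of their group in 9 of 63 combinations of gene and group, by a test of the gap to the nearest library against the range that flags about 1 in 20 by chance. For Igfbpl1 they were sedentary replicate 6 (10.9 FPKM against 0.959 to 2.59 in the others) and 0-0-2 replicate 4 (8.96 against 0.812 to 2.67). For Eomes they were the same 2 libraries, at 4.55 and 2.11 FPKM, with 14-7-0 replicate 9 at 1.27 and 14-14-0 replicate 3 at 6.29. For Dcx it was home cage replicate 9 at 3.96 FPKM, for Sox4 the shallow 14-7-0 replicate 4 at 6.58, and for Tubb2b 14-7-2 replicate 9 at 57.2 against 84.3 to 114.

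The effect of a group differed between harvest cohorts, second minus first, in 5 of 54 tests of a gene in a comparison with sedentary (limma, unadjusted p under 0.05). In 14-0-0 the difference for Dcx was -0.63 (p = 0.043). In 14-7-2 that for Mki67 was 0.64 (p = 0.0458). In 0-0-2 it was -1.75 for Igfbpl1 (p = 0.0278), -1.89 for Eomes (p = 0.0372) and -0.49 for Top2a (p = 0.0409). Every adjusted p was at least 0.937.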

How the results depend on the processing

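The 6 genes passing in each comparison were counted under every alternative. Leaving out sedentary replicate 6 moved the count from 0 to 1 in 14-7-0, to 2 in 14-7-2 and to 1 in 14-14-0, the permutation calls of single genes from 2 to 9 of 54, and the cohort differences from 2 to 1 (5 with a minimum of 0.1 FPKM). The share of all genes rising moved from 1.60%, 2.07% and 3.19% to 1.63%, 1.75% and 4.53% in those 3 groups. Without the 3 libraries highest in precursor markers the counts were 1, 2 and 1 there, and 2 in 14-0-0 against 0-0-2 (1 with all libraries). In 14-0-0 against sedentary, with 2 calls, there was 1 with the choroid plexus score, a pseudocount of 1, a minimum of 5 FPKM or the second cohort alone, 4 in the first cohort alone and 0 at p under 0.01. There were 3, with Dcx, in the joint fit, with the precursor score, without sedentary replicate 6 or without the 3 libraries. There were also 3, with Sox4, under the choroid plexus score without sedentary replicate 6. The calls over all genes moved as well, so the counts of the 6 genes are to be read against them. Of 12994 genes, 794 rose in the main fit, 1078 in the joint fit and 906 without sedentary replicate 6 or the 3 libraries. With the precursor score 737 rose, with the choroid plexus score 499, and with the latter and without sedentary replicate 6 448. With the choroid plexus score and without sedentary replicate 6 there was 1 in 14-7-0, 14-7-2 and 0-0-2. With the dentate granule score there was 1 in 14-7-0, 1 in 14-7-2 and 2 in 14-14-0, and with the precursor score 1 in each. In 14-14-0 the dentate granule score moved the calls over all genes from 415 to 730 rising and from 228 to 296 falling. In 0-0-2, where none passed, 1 did with the choroid plexus score, cohort as a covariate, the joint fit or the first cohort alone, and 1 did in 14-7-2 with the joint fit or the first cohort alone and in 14-7-0 with the first cohort alone. Over all genes the joint fit called 243 higher in 0-0-2 and 574 in 14-7-2, against 148 and 269 in the main fit. In 14-0-0 against 14-14-0, 2 became 3, with Igfbpl1, under the precursor score and without the 3 libraries. Over all genes 712 were higher there in the main fit, 646 with the precursor score and 659 without the 3 libraries. In 14-0-0 against 14-7-0, 1 became 0 with Cyber-T, the joint fit, the second cohort alone or p under 0.01. Against 14-14-0, 2 became 1 with Cyber-T, a minimum of 5 FPKM, the second cohort alone or p under 0.01. Against 0-0-2, 1 became 2 with Cyber-T, the choroid plexus or precursor score, cohort as a covariate or the joint fit, and 0 with the first cohort alone, a minimum of 5 FPKM or p under 0.01. Of all genes in that comparison, 151 were higher in the main fit, 136 in the joint fit, 95 with the precursor score and 187 with cohort as a covariate.

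Of the 54 differences of a gene in a comparison with sedentary, 9 changed sign without sedentary replicate 6, 13 in the first cohort alone and 16 in the second. In the second cohort they included Dcx (-0.025), Sox11 (-0.019) and Sox4 (-0.00075) in 14-0-0, Tubb2b in 14-14-0 (0.031), Dcx (-0.25) and Igfbpl1 (-0.77) in 0-0-2, Dcx (-0.085) and Igfbpl1 (-0.43) in home cage, and, apart from these 54, Dcx in 14-0-0 against 14-14-0 (-0.036). In the first they included Neurod1 in 14-14-0 (-0.30). Without sedentary replicate 6 they were Neurod1 in 14-14-0 (-0.077), 0-0-2 (-0.088) and home cage (-0.007), Sox4 in 14-14-0 (0.024), Eomes in 14-7-0 (0.12) and 0-0-2 (0.17), Top2a in 14-7-2 (0.0073) and home cage (0.041), and Mki67 in 14-14-0 (-0.00037). With the choroid plexus score they included Dcx (-0.040) and Igfbpl1 (-0.083) in home cage, with a pseudocount of 1 Igfbpl1 in home cage (-0.022), and with the precursor score Neurod1 in 14-0-0 (-0.019). The cause was not tested. Leaving out 1 library at a time gave 0.59 to 0.96 for Igfbpl1 in 14-0-0, with limma p up to 0.0752, and 0.17 to 0.25 for Tubb2b, with p up to 0.0252. Igfbpl1 did not pass without sedentary replicate 0, 2, 4, 7, 8 or 9. Nor did it pass without 14-0-0 replicate 0, 1, 2, 7, 8 or 9, while Tubb2b passed each time.

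With the replicate number as a block, the replicate block moved the count to 1 in 0-0-2, to 1 in 14-0-0 against 14-14-0 and to 2 in 14-0-0 against 0-0-2. The labels do not say that a number pairs libraries. Of 10 same-numbered pairs, r of their deviations was over 0.1 in 7 for 14-0-0, 6 for 14-7-0, 6 for home cage, 4 for 14-14-0, 2 for 14-7-2 and 2 for 0-0-2, and 0 to 3 libraries correlated best with their own number, so the number was not taken as a pairing.

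The precursor score, the 3 libraries left out and the choroid plexus score without sedentary replicate 6 were chosen after seeing the data. Depth in reads was not used, and Mki67, Top2a and Eomes lay under 1 FPKM on average, where small changes could not be seen.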
